A study of Haemaphysalis flava with 2 samples.

Results

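Translation factors are the proteins that start, extend and end protein synthesis on the ribosome, and tRNA synthetases charge each tRNA with its amino acid. Their transcripts were followed in 1 pair of salivary gland libraries from Haemaphysalis flava, a hard tick, with 1 made from engorged and 1 from semi-engorged animals. The contigs were chosen by the words of the best-matching protein name (translation or eukaryotic initiation, elongation factor, eIF, eEF, tRNA synthetase or ligase, peptide chain release, or poly followed by A and binding, without transcription). This gave 99 contigs of 54357, or of the 20145 that carry a protein description. By name they fall into 37 initiation, 27 elongation, 29 synthetase and 1 release factor contigs, and 5 that matched the poly, A and binding words. Of the 99 names, 83 are those of translation factors, synthetases or nuclear proteins that bind polyadenylated RNA. The 83 include 2 contigs of RIA1, whose name gives both elongation factor 2 and ribosome biogenesis. The other 16 name proteins of another role, among them kinases that act on factors, eIF4E-binding proteins, Argonaute and RNA polymerase II factors, and are given apart.

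The series text speaks of 50 engorged and 50 semi-engorged ticks and of 100 glands, with no strain, sex, host or treatment named in the labels used here, and does not say how many entered each library. Neither library has a replicate, so the differences have no replicate check, and no test between stages was possible. The libraries held 57892372 reads (engorged) and 54039984 reads (semi-engorged) on contigs, and every one of the 99 contigs had reads in both. In bulk tissue, fewer cells of a type and less RNA per cell cannot be told apart. Contigs named for salivary gland proteins (lipocalin, Kunitz, cement, glycine-rich and metalloprotease words) had a summed level of 13859 CPM (reads scaled to a library of 1000000) in engorged and of 38199 CPM in semi-engorged ticks. Summed levels of the muscle words were 543 and 496 CPM, of the nerve words 750 and 1073 CPM, of the haemocyte and fat body words 2127 and 2125 CPM, of the midgut and cuticle words 210.2 and 472 CPM, and of the host blood words 49.6 and 30.8 CPM. Contigs at 0 in engorged and in semi-engorged ticks numbered 59 and 24 of 379 for the gland words, 0 and 0 of 39 for muscle, and 1 and 2 of 47 for nerve. They numbered 4 and 1 of 37 for haemocyte and fat body, 2 and 4 of 43 for midgut and cuticle, and 0 and 0 of 7 for host blood. The part of these levels in the results below was not tested.

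In eukaryotes, initiation begins when eIF4E binds the mRNA cap and eIF2 brings the initiator tRNA to the small ribosomal subunit, which carries eIF3. Elongation factor 1 alpha then delivers charged tRNAs, and elongation factor 2 moves the ribosome along. Mitochondria have a protein synthesis system of their own that uses bacterial-type factors (IF-2, EF-Tu, EF-Ts and EF-G). Salivary glands of feeding hard ticks secrete large amounts of protein and are broken down after the tick has fed.

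Most of the 99 contigs differed by less than 2-fold between the libraries. A contig was counted as higher in a library when log2 of the ratio of CPM + 1 passed 1 in that direction, a rule of size and not a test. By this rule 8 of 99 (8.08%) were higher in engorged and 10 of 99 (10.1%) in semi-engorged ticks, and 81 passed neither limit. Of all 18950 described contigs with at least 20 reads, 15.4% and 16.6% were past the same limits, and of all 47965 contigs with that many reads 13.0% and 15.5%. The median log2 fold was 0.16 (95% interval over contigs -0.21 to 0.39) against 0.01 for described contigs. The 99 contigs are deeper than most, with a median of 2196 reads over both libraries against 342. Contigs with at least 100 reads in each library needed a log2 factor of -0.23 to bring their median ratio to 1. Their median thus lay above 0, and the 0.01 is not a value for contigs of like depth. Among the 94 with at least 100 reads over both libraries the counts were again 8 and 10, while described contigs of that depth passed the limits in 20.9% and 21.2% of cases.

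The same counts were made under other rules, engorged before semi-engorged. With a pseudocount of 0.1, the counts were 16 and 12, where 23.4% of described contigs passed the engorged limit and 5302 of 18950 the other. A pseudocount of 10 gave 5 and 6, where 6.10% and 6.64% passed. A log2 limit of 2 left 2 and 2, where 4.48% and 7.09% passed. Median ratio scaling, which sets the median ratio of contigs with at least 100 reads in each library to 1, gave 7 and 18, beside 12.0% and 19.3%. Totals without the 50 most abundant contigs gave 21 and 9, beside 21.4% and 16.4%. Here and below, this means that the 50 most abundant of each library were left out of both totals. The smaller totals also raise each CPM against the added 1, so the shift differs between contigs. With 1 contig per name the counts were 7 and 7 of 78 names, beside 20.7% and 13.3%.

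**Figure D1:**
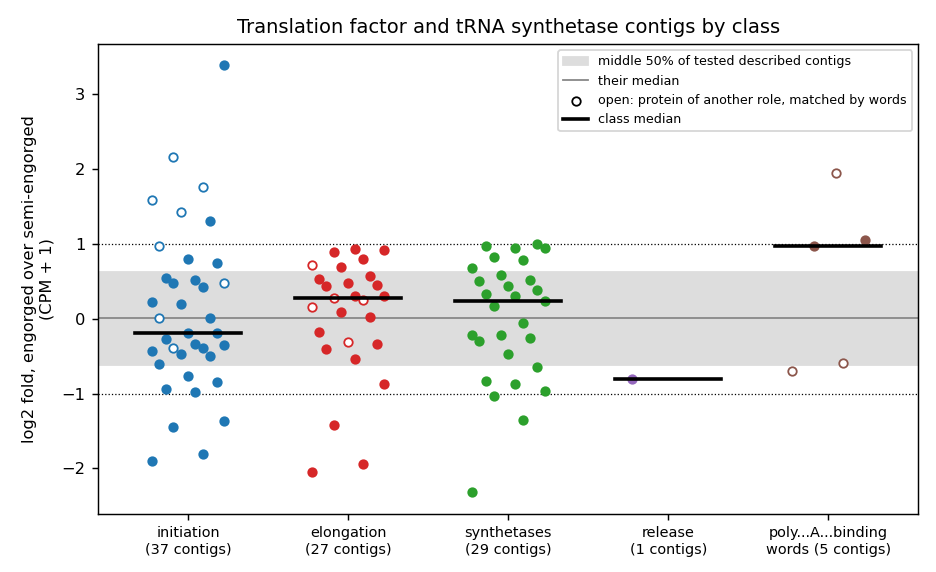
Each point is 1 contig, placed by class on the horizontal axis and by log2 fold (CPM + 1, engorged over semi-engorged) on the vertical axis; the band is the middle 50% of described contigs and the dotted lines are the limits of the size rule. Most points lie between -1 and 1, the highest is an initiation factor contig at 3.39 and the lowest a synthetase contig at -2.32.

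By class, initiation factors counted 6 of 37 contigs past the engorged and 4 past the semi-engorged limit. Elongation factors counted 0 and 3 of 27, and synthetases 0 and 3 of 29. As shares these were 16.2% and 10.8% for initiation, 0% and 11.1% for elongation and 0% and 10.3% for synthetases, beside 15.4% and 16.6% of described contigs. The single release factor contig (contig_1619, eRF1, which recognises stop codons) passed neither limit, with 3424 engorged and 5610 semi-engorged reads, a log2 fold of -0.80. Class medians of the log2 fold were -0.19 (-0.39 to 0.48) for initiation, 0.28 (-0.31 to 0.53) for elongation and 0.24 (-0.30 to 0.52) for synthetases. All these intervals span 0. The 4 settings of scale (library totals, median ratio, TMM, and totals without the most abundant contigs) turned the sign of the median of all 99 and of the initiation class, so no direction is given for these. Of the 8 contigs higher in the engorged library, 5 belong to the 16 of another role, and none of those 16 was higher in the semi-engorged library. The other 83 counted 3 and 10, with a median of 0.02. The 3 include contig_9029, named for a nuclear protein that binds polyadenylated RNA and not for translation. For these 83 the order of the counts and the sign of the median depended on the scaling, with 15 and 9 without the 50 most abundant contigs in the totals, and 2 and 18 with a median of -0.14 under median ratio scaling.

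Summed reads of all 99 made up 0.894% of the engorged library (0.892% to 0.897%, a 95% interval by Wilson's method) and 0.915% of the semi-engorged one (0.913% to 0.918%). A single contig of elongation factor 1 alpha (contig_6) held the largest part. Without it the shares were 0.629% (0.627% to 0.632%) and 0.531% (0.529% to 0.533%), so the order of the libraries turned. These shares still lean on abundant contigs. eIF4 gamma 2 (contig_814) was at 965 CPM in engorged and 390 CPM in semi-engorged ticks. An RNA polymerase II-binding protein of another role (contig_1173) was at 702 and 182 CPM. The order without contig_6 is therefore no direction of the remaining contigs at large. Intervals of shares and ratios cover counting error only, and the reads carry no molecular identifiers.

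**Figure D2:**
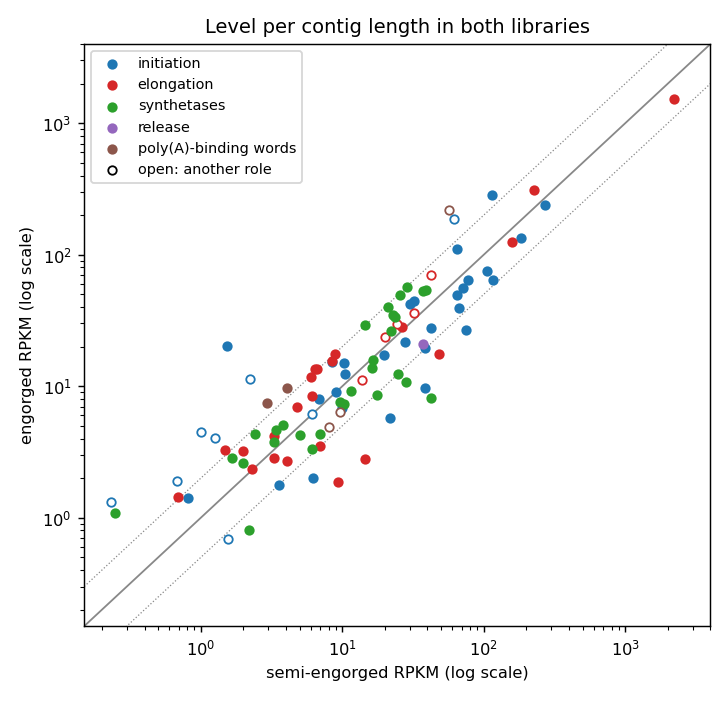
Level of each contig in both libraries in RPKM (reads per library size and contig length), on log axes; the solid line marks equal levels and the dotted lines 2-fold differences. Levels run from below 1 to 1536 RPKM in the engorged and 2226 RPKM in the semi-engorged library, and contig_6 stands far above the rest.

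Among initiation factors, 2 of the 4 eIF4 contigs were past the engorged limit and 0 past the other. Of described contigs 15.4% and 16.6% passed these limits. The contig named as the cap-binding subunit of eIF4F (First_Contig221), a name of eIF4E, had 2694 engorged and 191 semi-engorged reads, or 20.2 and 1.54 RPKM. Its CPM ratio of 13.2 (95% interval 11.4 to 15.3) was the largest of the 99 contigs. eIF4 gamma 2 (contig_814), a relative of the eIF4G scaffold that lacks its eIF4E-binding part in mammals, had 55880 and 21054 reads. Its level was 284 and 115 RPKM, the highest of any initiation contig in the engorged library, and its ratio was 2.48 (2.44 to 2.52). The other two eIF4 contigs did not pass the limit. eIF4B (contig_2424), which helps the helicase of the complex, had 7125 and 4767 reads, a ratio of 1.40 (1.34 to 1.45). eIF4E member 2 (contig_8802), a cap-binding relative of eIF4E, had 789 and 534 reads, a ratio of 1.38 (1.23 to 1.54). All 4 eIF4 contigs were above 0 on the log2 scale under each of the 4 scalings.

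eIF3, the multi-subunit scaffold on the small ribosomal subunit, was represented by 11 contigs, and their names divide by sign. The 3 contigs with older names of its largest subunit, eIF3a, were on the engorged side. The theta subunit (contig_1201) had 19965 and 11045 reads, a ratio of 1.69 (1.65 to 1.73). Subunit 10 appeared as contig_1333, with 5638 and 3591 reads, and as contig_2687, with 2357 and 1874 reads. The log2 folds of these 3 were 0.75, 0.54 and 0.23, and the last turned to -0.002 under median ratio scaling. The other 8 contigs were all on the semi-engorged side, from -0.27 for subunit E (contig_3060, 4827 and 5431 reads) to -1.44 for a contig named only as a subunit (contig_3236). The latter had 2143 and 5534 reads and was the single eIF3 contig past the limit, at 2.77-fold higher in the semi-engorged library (2.63 to 2.91). Subunit b (contig_8251), a core subunit, had 3666 and 5843 reads, and subunit s8 (contig_160) 5883 and 7221. Subunits g (contig_1410), h (contig_1593) and m (contig_7031) had log2 folds of -0.34, -0.48 and -0.35, and an unnamed subunit (contig_11694) -0.94. These 8 stayed below 0 under each scaling. This division was noticed after the values were seen.

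The contigs of eIF2, the eIF5-like factor and the less specific names lay within the limits. eIF2 beta (contig_556), a subunit of the tRNA carrier, had 10276 and 12972 reads (135 and 183 RPKM), a ratio of 0.739 (0.720 to 0.759). The eIF5-like contig (contig_157) was the most abundant initiation contig of the semi-engorged library, with 239 and 272 RPKM from 37826 and 40313 reads. Its log2 fold of -0.19 turned to 0.03 without the 50 most abundant contigs in the totals. A contig named only as a eukaryotic translation initiation factor (contig_3589) had 3658 and 6167 reads, and the density-regulated protein (contig_6200), an eIF1 relative that acts in re-initiation, had 1355 and 1954. Their log2 folds were -0.84 and -0.61.

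eIF2B recharges eIF2 with GTP and is the target that phosphorylated eIF2 blocks. Its 5 contigs spread around 0, with 0 past the limit in either direction, beside 15.4% and 16.6% of described contigs. The epsilon subunit (contig_12644), which holds the exchange activity, had 1699 and 885 reads, a ratio of 1.79 (1.65 to 1.95). The delta (contig_9024) and beta (contig_12210) subunits had log2 folds of -0.19 and 0.20, and the sign of each turned with the scaling. The alpha subunit appeared as contig_12285, with 704 and 953 reads, and contig_10093, with 138 and 74 reads. Both match the same protein, yet their ratios of 0.690 (0.625 to 0.761) and 1.74 (1.30 to 2.34) lay on opposite sides of 1.

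**Figure D3:**
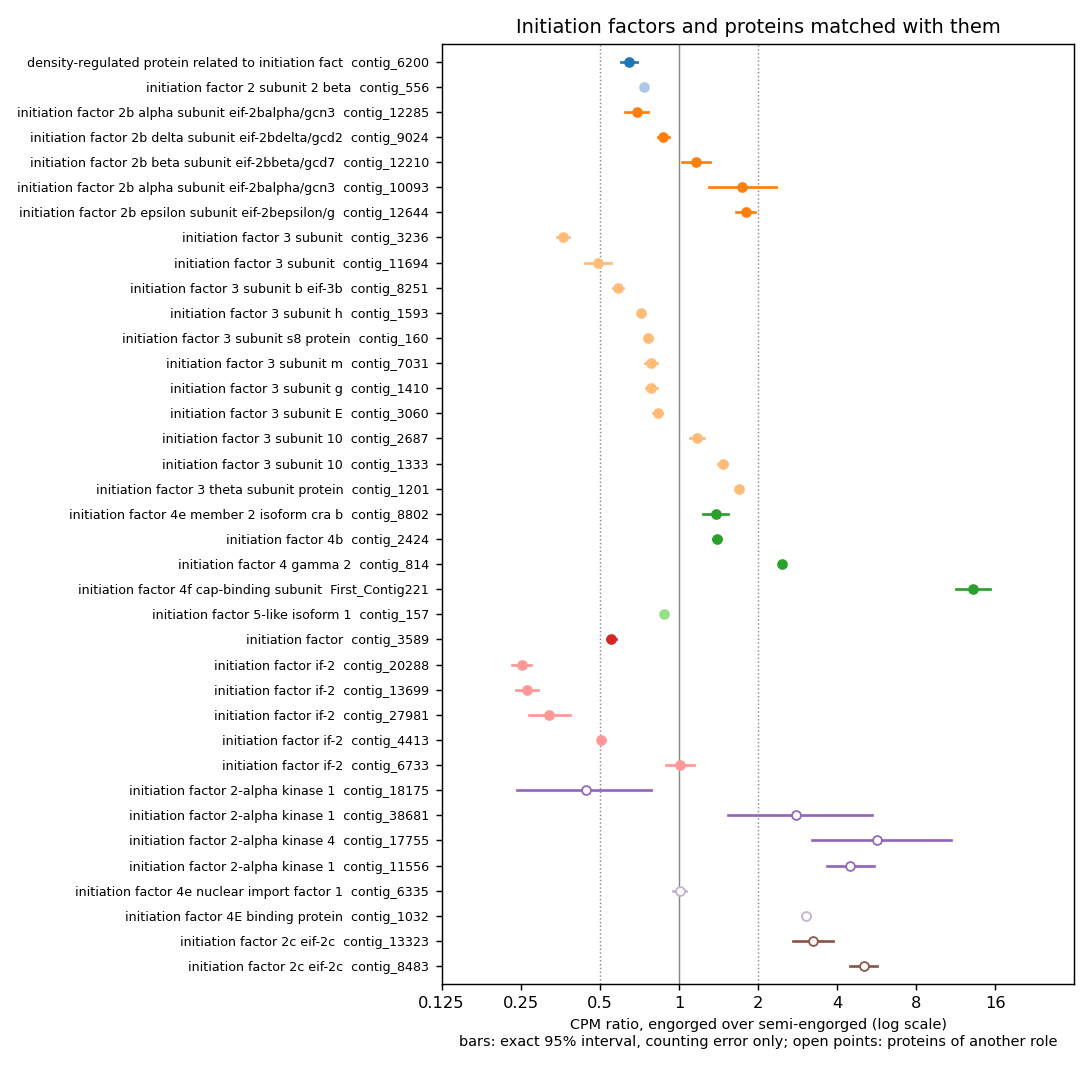
CPM ratio of each initiation contig with its exact 95% interval on a log2-spaced axis, grouped by factor; open points are proteins of another role matched by their names. The eIF4 contigs lie right of 1, 8 of the 11 eIF3 contigs left of 1, and the IF-2 contigs between 0.252 and 1.01.

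Proteins that restrain or bind initiation factors were matched by their names and include the translation brake of the TOR pathway. The eIF4E-binding protein (contig_1032), which keeps eIF4E from the eIF4G scaffold unless phosphorylated, matched its Haemaphysalis longicornis counterpart. It had 13515 and 4153 reads, or 186 and 61.2 RPKM, and was 3.04-fold higher in engorged ticks (2.93 to 3.15). The eIF4E nuclear import factor (contig_6335), another eIF4E-binding protein, had 2711 and 2515 reads, a ratio of 1.01 (0.953 to 1.06). Kinase 1 of eIF2 alpha, which in mammals is held inactive by haem, appeared as 3 contigs with the same best match. The deepest of them (contig_11556) had 567 and 118 reads, a ratio of 4.49 (3.67 to 5.52). The shorter contig_38681 had 45 and 15 reads, a ratio of 2.80 (1.53 to 5.41), whereas contig_18175 had 19 and 40, a ratio of 0.443 (0.243 to 0.784). Kinase 4 of eIF2 alpha (contig_17755), known as GCN2 and activated by uncharged tRNA, had 85 and 14 reads, a ratio of 5.67 (3.20 to 10.8), but at this depth the added 1 CPM kept its log2 fold at 0.97. Elongation factor 2 kinase, which slows elongation, had 3 contigs with the same best match and ratios of 1.13 to 1.22 (contig_3325, contig_10929 and contig_9277).

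Contigs named eIF-2C carry an older name of Argonaute, the protein that binds small RNAs, and both were higher in the engorged library. The first (contig_8483) had 1853 and 343 reads, a ratio of 5.04 (4.49 to 5.68), and the other (contig_13323) had 592 and 171, a ratio of 3.23 (2.72 to 3.85). Their levels stayed low, at 11.3 and 4.06 RPKM in the engorged library. Other words brought in an RNA polymerase II C-terminal domain-binding protein (contig_1173), with 40656 and 9826 reads and a ratio of 3.86 (3.78 to 3.95). They also brought in the RNA polymerase II elongation factor ELL (contig_573) and negative elongation factor B (contig_5486), with log2 folds of 0.71 and -0.31. PUF60 (contig_11601), a splicing factor, and a polyamine-modulated factor-binding protein (contig_15780) had -0.69 and -0.59. The nuclear polyadenylated RNA-binding protein had 505 and 199 reads in contig_9029, which passed the limit at 1.05, and 246 and 91 reads in contig_14632, which did not at 0.97.

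The bacterial-type factors lay mostly on the semi-engorged side. A group of 12 contigs named IF-2, EF-G, EF-Tu or EF-Ts was formed after the values were seen. Of these, 0 were past the engorged and 6 past the semi-engorged limit, beside 15.4% and 16.6% of described contigs. The median log2 fold of the 12 was -1.17. Contigs named elongation factor 1 alpha/Tu (First_Contig401, First_Contig218 and contig_15202) are not among the 12. Their log2 folds were 0.92, 0.69 and 0.89. Of the 5 IF-2 contigs, contig_20288 had 670 and 2482 reads and contig_13699 had 535 and 1888. They match the same protein and were 3.97-fold (3.64 to 4.33) and 3.78-fold (3.43 to 4.17) higher in the semi-engorged library. A further IF-2 contig (contig_27981) had 169 and 491 reads, 3.11-fold higher there (2.61 to 3.73). The deepest (contig_4413) had 5327 and 9813, just inside the limit at -0.97, and contig_6733 had 556 and 515, a ratio of 1.01 (0.892 to 1.14). IF-2 is also a name given to eIF5B, a cytosolic relative that joins the ribosomal subunits, and these names do not tell the proteins apart.

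EF-G, the bacterial-type counterpart of elongation factor 2, had its largest differences in contig_18356 and contig_21468, again with the same best match. They had 175 and 844 reads and 147 and 679 reads, 5.17-fold (4.39 to 6.12) and 4.95-fold (4.13 to 5.96) higher in the semi-engorged library. The contig named mitochondrial elongation factor G2 (contig_31118), which acts in ribosome recycling in human mitochondria, had 103 and 145 reads. A further EF-G contig (contig_35223) had 292 and 316 reads, and its log2 fold of -0.18 turned to 0.01 without the 50 most abundant contigs in the totals. EF-Tu, which delivers charged tRNA, had 1550 and 3976 reads in contig_11760, 2.75-fold higher in the semi-engorged library (2.59 to 2.92). The other EF-Tu contig (contig_15838) went the other way, with 375 and 272 reads and a ratio of 1.29 (1.10 to 1.51). EF-Ts (contig_8094), the exchange factor of EF-Tu, had 3811 and 3336 reads, and its log2 fold of 0.09 turned to -0.14 under median ratio scaling.

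As values beside these, 37 contigs of mitochondrial ribosomal proteins counted 0 and 8 past the limits (0% and 21.6%), with a median log2 fold of -0.54 (-0.81 to -0.09). The 22 contigs of cytosolic ribosomal proteins counted 1 and 0, with a median of 0.00. The sign of the mitochondrial median held under each scaling and that of the cytosolic median turned. Under median ratio scaling 13 mitochondrial ribosomal and 7 bacterial-type contigs were past the semi-engorged limit, beside 19.3% of described contigs. Whether the bacterial-type factors and the mitochondrial ribosomal proteins differ from other contigs was not tested.

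None of the contigs named elongation factor 1 alpha, 1 beta or 2 passed the limit. Elongation factor 1 alpha (contig_6) had 153377 and 207540 reads, or 1536 and 2226 RPKM, the highest level of the 99 contigs in both libraries. It was 1.45-fold higher in the semi-engorged library (1.44 to 1.46). The 4 other contigs with elongation factor 1 alpha names were on the engorged side, with log2 folds of 0.58 to 0.92. They were at 1.43 to 17.6 RPKM in the engorged library. The deepest of them (First_Contig401) had 1087 and 511 reads. These signs and that of contig_6 held under each scaling. First_Contig401, First_Contig218 and contig_15202 are named elongation factor 1 alpha/Tu, which does not tell elongation factor 1 alpha from EF-Tu. The contrast may therefore not lie within 1 factor. Elongation factor 1 beta, the exchange factor for elongation factor 1 alpha, also had contigs on both sides. The beta/delta chain (contig_1231) had 15805 and 10790 reads, a ratio of 1.37 (1.33 to 1.40), and the beta contig (contig_3075) had 5793 and 6866, a ratio of 0.788 (0.760 to 0.816).

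Elongation factor 2 was represented by contig_2730, with 1450 and 989 reads, and contig_6172, with 794 and 515, at log2 folds of 0.43 and 0.48. RIA1, a relative of elongation factor 2 that acts in maturation of the large ribosomal subunit, had 74 and 31 reads in contig_1910 and 52 and 47 in contig_1911. The selenocysteine-specific elongation factor (contig_21551) had 366 and 673 reads, 1.97-fold higher in the semi-engorged library (1.73 to 2.24). Contigs named only as translation elongation factor (contig_12546, contig_20124 and contig_31720) had log2 folds of 0.93, 0.80 and 0.30.

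**Figure D4:**
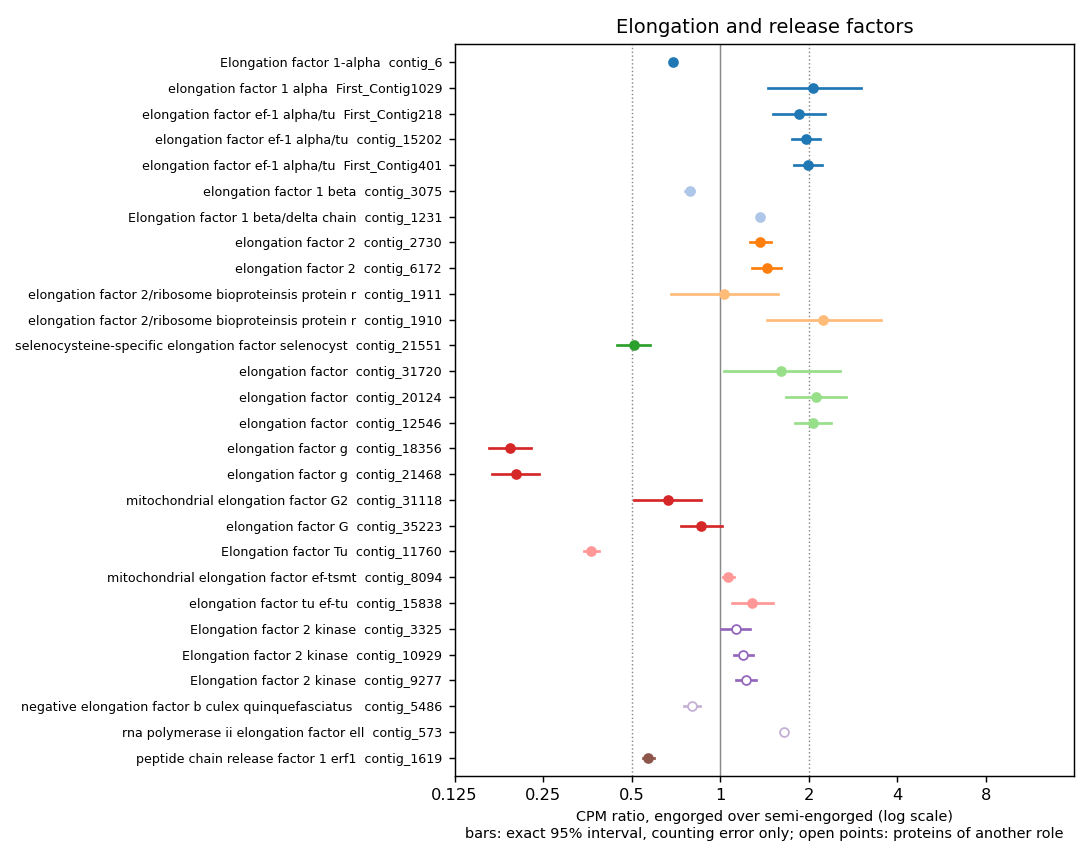
CPM ratio of each elongation and release factor contig with its exact 95% interval on a log2-spaced axis; open points are kinases of elongation factor 2 and RNA polymerase II factors. The lowest ratios, 0.194 and 0.202, belong to the EF-G contigs contig_18356 and contig_21468, and elongation factor 1 alpha (contig_6) lies at 0.690.

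The 29 synthetase contigs name 16 amino acids, with glutamate and proline on 1 bifunctional enzyme, and 1 contig names none. No synthetase was past the engorged limit, and those for glycine, lysine and leucine held the 3 contigs past the semi-engorged limit. This split moved with the scaling. The counts were 6 and 2 without the 50 most abundant contigs in the totals, beside 21.4% and 16.4% of described contigs. Under median ratio scaling they were 0 and 6, beside 12.0% and 19.3%. Phenylalanyl contig_7412 lay just inside the engorged limit, at 0.996. Glycyl-tRNA synthetase (contig_1389) had 1532 and 7368 reads, or 8.17 and 42.1 RPKM, 5.15-fold higher in the semi-engorged library (4.88 to 5.45). It had the highest synthetase level in that library and the lowest log2 fold of the 99 contigs, -2.32. Lysyl-tRNA synthetase (contig_10321) had 1196 and 2932 reads, 2.63-fold higher there (2.45 to 2.81). Leucyl-tRNA synthetase (contig_6642) had 1904 and 3698 reads, 2.08-fold higher there (1.97 to 2.20), and was no longer past the limit without the 50 most abundant contigs in the totals. A contig of other name for the same amino acid (contig_5921) had 659 and 1134 reads, a log2 fold of -0.83.

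On the engorged side, the bifunctional glutamate and proline ligase had 3 contigs, each inside the limit. contig_3378 had 6281 and 3007 reads, contig_5700 had 5183 and 2441, and contig_2171 had 722 and 356, with ratios of 1.95 (1.87 to 2.04), 1.98 (1.89 to 2.08) and 1.89 (1.67 to 2.16). contig_5700, at 56.7 RPKM, had the highest synthetase level of the engorged library. Threonyl-tRNA synthetase (contig_2497 and contig_9821), valyl (contig_8024 and contig_14236), seryl (contig_1698 and contig_22415) and isoleucyl (contig_8729 and contig_22079) contigs had log2 folds of 0.16 to 0.79. The alanyl (contig_333), arginyl (contig_21019) and unspecified (contig_7005) contigs had 0.68, 0.30 and 0.39. In all, 16 of 29 synthetase contigs were above and 13 below 0.

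Of 16 groups by amino acid, counting the bifunctional enzyme as 1 group and the unspecified contig as another, 6 held 1 contig. The other 10 had all contigs above 0 in 5, all below 0 in 3 and contigs on both sides in 2. Some of these contigs match the same protein, so they are not independent. Others of the same amino acid match different proteins, so a group need not be 1 enzyme. The synthetase names do not tell cytosolic from mitochondrial enzymes. The mixed groups were histidine and phenylalanine. Histidyl contigs contig_22098 and First_Contig635 had log2 folds of -0.21 and -0.05, while contig_15867 had 95 and 20 reads, a ratio of 4.43 (2.72 to 7.58), which the added 1 CPM reduced to 0.95. All 3 phenylalanyl contigs name the beta subunit but match 3 different proteins. contig_7412 had 3061 and 1406 reads, a ratio of 2.03 (1.91 to 2.17), and contig_15500 had 1524 and 2823, 1.98-fold higher in the semi-engorged library (1.86 to 2.11). The third (contig_7355) had 678 and 1016 reads. The remaining groups below 0 were cysteine (contig_18449 and contig_36503, -0.30 and -0.87), glutamine (contig_15765 and contig_18505, -0.47 and -0.26) and methionine (contig_12579, -0.22).

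**Figure D5:**
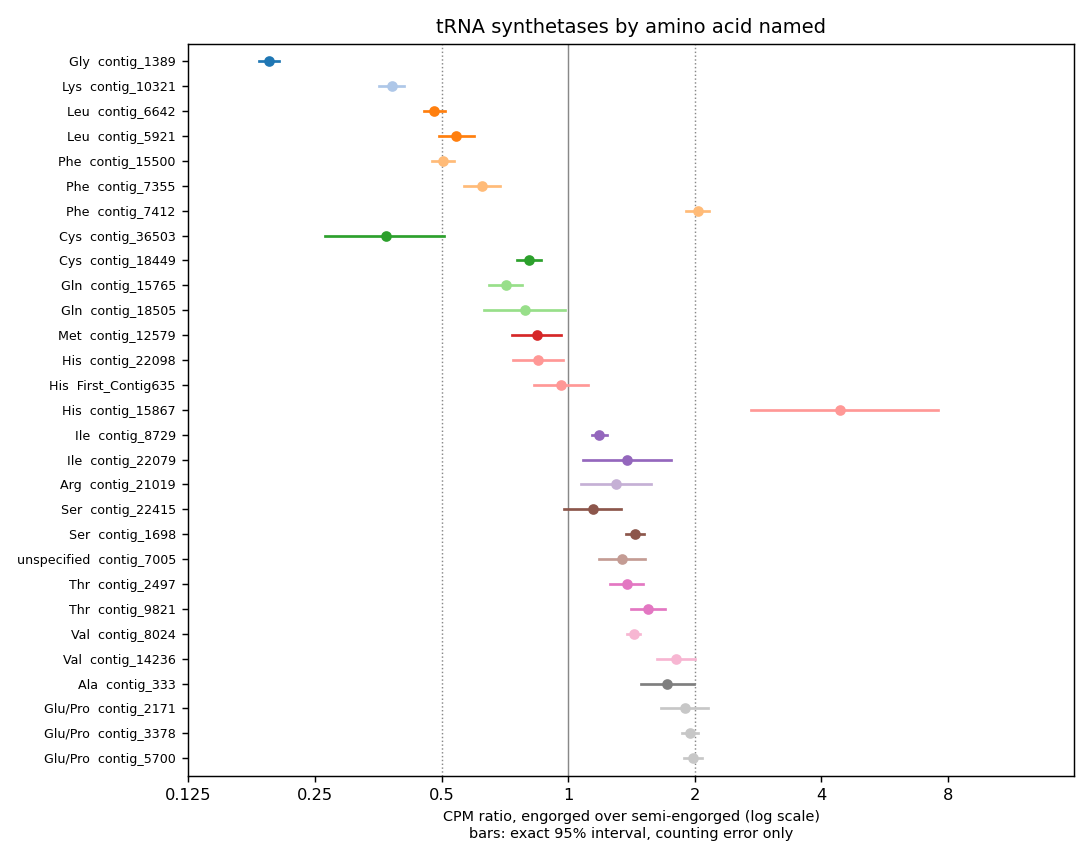
CPM ratio of each tRNA synthetase contig with its exact 95% interval on a log2-spaced axis, ordered by the median of its amino acid. Glycine lies lowest at 0.194, the 3 glutamate and proline contigs lie between 1.89 and 1.98, and the phenylalanine contigs lie on both sides of 1.

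The 99 contigs matched 85 different proteins, 80 contigs in Rhipicephalus pulchellus, 11 in Ixodes scapularis, 3 in Amblyomma maculatum and 1 in Haemaphysalis longicornis, all of them ticks. The other 4 matched proteins of insects or an oyster. A name is therefore that of a relative's protein. For 12 proteins there was more than 1 contig (26 contigs in all), so contigs are not independent of each other. In 9 of these the contigs differed by less than 0.35 on the log2 scale, with a median span of 0.14 over all 12. The exceptions were RIA1, with a span of 0.51, eIF2B alpha, with 1.02, and eIF2 alpha kinase 1, with 2.15. The median length was 1653 bases (306 to 7571), against 837 for described contigs.

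Contigs chosen by words of TOR signalling, the nutrient-sensing pathway that acts on the eIF4E-binding protein, counted 2 and 0 of 14 past the limits without that protein. Their median log2 fold of 0.61 (-0.11 to 0.82) kept its sign under each scaling. Under median ratio scaling 1 of the 2 was past the limit. The 2 were named ribosomal protein S6 kinase polypeptide 1 (contig_3269) and ribosomal protein S6 kinase-like 1 (contig_17009). The first had 8669 and 2559 reads and a log2 fold of 1.64, and the second 163 and 46 reads and 1.04. These names do not tell whether either kinase is a target of TOR. Another contig named ribosomal protein S6 kinase (contig_4688) had 4758 and 5952 reads, a log2 fold of -0.42. The contigs of tuberin, which restrains TOR, had 858 and 914 reads (contig_11682) and 163 and 169 reads (contig_24593). Target of rapamycin itself had 1780 and 1413 reads in First_Contig287 and 104 and 86 in contig_33731. The FKBP-rapamycin-associated protein, another name of that kinase, had 6862 and 3921 in contig_1141. The signal recognition particle and its receptor, which lead secreted chains to the endoplasmic reticulum, had all 6 contigs on the semi-engorged side. Of these 2 were past the limit, SRP72 (contig_540, 3052 and 8854 reads) and SRP68 (contig_23717, 560 and 1298), and the median of -0.89 (-1.62 to -0.58) kept its sign under each scaling. Under median ratio scaling 4 were past it. The shares of described contigs past the limits were 15.4% and 16.6%, and 12.0% and 19.3% under median ratio scaling.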

How the data were processed

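PolyA RNA was sequenced from 1 engorged and 1 semi-engorged gland library. For every assembled contig the deposited table holds, per the file headers, read counts and RPKM. The submitters' processing notes list TopHat and Cufflinks, and for the engorged library CASAVA 1.8, without saying what each did. How contigs were assembled, annotated and counted is not given, so close copies may share reads. Contig sequences were not used. The deposited counts were scaled to CPM by library totals, and log2 folds were computed on CPM + 1, which understates low contigs. A contig with at least 20 reads over both libraries entered the counts. The size limit was a log2 fold of 1. CPM ratios carry no added 1 and have exact 95% intervals (Clopper-Pearson). Intervals of medians are order-statistic intervals over contigs, which are not replicates. With 1 library per stage no p-value was computed. The calculations were tested on simulated counts. Members, classes and lists were chosen with earlier results of these data known. Named contigs were the deepest contig of each factor or amino acid, every member past the limit whose higher library held at least 100 reads, and the 3 with the highest RPKM of each class and library. Alternatives were other pseudocounts, filters, scalings (TMM from edgeR 4.0.16), limits, the deposited RPKM in place of counts, and subsets of contigs. Python 3.11.15 with numpy 2.4.6, pandas 2.3.3 and scipy 1.17.1, and R 4.3.3, were used.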

Additional observations from a re-analysis of the deposited data

How the results depend on the processing

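No paired analysis was possible because each stage has 1 library, and leaving out a library leaves no comparison. Median ratio scaling multiplied every ratio by 0.850. Under it, 18 of the 99 contigs were higher in the semi-engorged library in place of 10, among them 7 initiation and 6 synthetase contigs, and the initiation median was -0.42. Without the 50 most abundant contigs in the totals, 21 in place of 8 were higher in the engorged library, among them 4 elongation and 6 synthetase contigs. TMM scaling, no read filter, a filter of 100 reads, RPKM and leaving out the upper contig numbers, which hold 0 of the 99, moved no count or median of the 4 groups beyond 1.5 times or its interval. With a pseudocount of 0.1, 16 contigs, of them 3 elongation and 2 synthetase contigs, were higher in the engorged library. With 10, the counts were 5 and 6 of 99, with 1 elongation contig higher in the semi-engorged library. At a log2 limit of 2, the counts were 2 and 2 of 99, with initiation at 2 and 0, elongation at 1 and synthetases at 1 in the semi-engorged library. With 1 contig per name, 2 initiation contigs were higher in the semi-engorged library. Without names of another role, 3 of 83 contigs and 2 of 29 initiation contigs were higher in the engorged library. The causes were not tested. The scalings multiplied ratios by 0.850 to 1.17, log2 factors of -0.23 to 0.22, and a pseudocount alone cannot turn a sign. None of the 18 contigs past the limit could therefore change sign. Likewise, a sign kept under each scaling is no check for a fold or median well beyond these factors. Of the 18 contigs, 16 stayed past the limit under all 3 other scalings. The exceptions were the nuclear polyadenylated RNA-binding contig_9029 and leucyl-tRNA synthetase contig_6642. With a pseudocount of 10, both of these and also contig_13323, contig_11556, contig_27981, contig_18356 and contig_21468 fell inside the limit. Among them, contig_27981 (IF-2) and contig_18356 and contig_21468 (EF-G) carry bacterial-type names. Depth limits the kinases of eIF2 alpha and histidyl contig_15867, whose counts fall to 14 and 20 reads in a library.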

Other observations

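Contigs named for ribosome biogenesis, the making of new ribosomes in the nucleolus, counted 16 of 42 past the engorged and 0 past the semi-engorged limit once the 2 RIA1 contigs were set aside. Under median ratio scaling 7 were past the engorged limit. Of described contigs 15.4% and 16.6% passed, and 12.0% and 19.3% under median ratio scaling. Their median log2 fold was 0.70 (0.46 to 1.05) and stayed above 0 under each scaling. A nucleolar and coiled-body phosphoprotein 1 contig (contig_468) had 7927 engorged and 1036 semi-engorged reads, a ratio of 7.14 (6.69 to 7.63). A second contig of that name (contig_16555) had 1705 and 1557 reads, a ratio of 1.02 (0.954 to 1.10). Nucleolar GTP-binding protein 1 (contig_2503) had 4656 and 1956. Of the 42 contigs 4 lay below 0, the lowest being nucleolin (contig_750), with 3386 and 5195 reads and a log2 fold of -0.71. Cytosolic ribosomal proteins beside them counted 1 and 0 of 22, with a ubiquitin fusion of ribosomal protein S27a (contig_7378, 3443 and 1550 reads) as the 1 past the limit. Whether these lists differ from each other was not tested.

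Contigs of tRNA modification and processing counted 2 and 1 of 21, with a median of 0.20, and 0 and 1 under median ratio scaling. Of the 2, contig_6153 (a tRNA and rRNA cytosine methylase) was also counted among the ribosome biogenesis contigs. The queuine tRNA-ribosyltransferase (contig_19094), which exchanges a base in the anticodon loop, had 166 and 465 reads, and a tRNA cytosine-5-methylase (contig_5943) had 3871 and 1628. Contigs of mRNA decay and cap removal counted 5 and 2 of 27 (18.5% and 7.41%), or 4 and 4 under median ratio scaling. For both lists the described contigs past the limits were 15.4% and 16.6%, and 12.0% and 19.3% under median ratio scaling. A deadenylase subunit (contig_1079), which shortens poly(A) tails, had 27933 and 7960 reads, a ratio of 3.28 (3.19 to 3.36). Other contigs of that name had 88 and 105 reads (contig_26957) and 49 and 48 reads (contig_21115). Past the semi-engorged limit were an exoribonuclease complex subunit (contig_3391), with 1511 and 3230 reads, and a CCR4 complex component (contig_38470), with 29 and 118. A contig named translational initiation factor IF2 (contig_30644) fell outside the word rule by its spelling and had 123 and 281 reads, a log2 fold of -0.99.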
